A study of Mus musculus with 16 samples.

Results

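Neuropeptide precursors are the genes for small secreted signalling peptides. The 10 described here are precursors that cortical neurons are known to make, chosen by name with earlier results of these data known. They are not all such precursors, as Sst, Npy and Vip are counted with the other precursors further on. Each of the 10 symbols matched 1 row among the 18424 genes of the expression table: Penk, Pnoc, Tac1, Tac2, Crh, Adcyap1, Cartpt, Cort, Cck and the granin Scg2. They were followed in the prefrontal cortex of 16 male C57BL/6N mice at postnatal day 120, by RNA-Seq of poly-A mRNA, with 4 mice in each of 4 groups. WT-Veh and WT-Flx mice were wild type, and HT-Veh and HT-Flx mice were heterozygous for an Arid1b allele made by genome editing, whose truncating change lies at the start of exon 5 and which is present in every cell of the body. The dams of the Flx groups drank the serotonin reuptake inhibitor fluoxetine hydrochloride (0.1 mg/ml, with 0.2% saccharin in the water) from postnatal day 3 to day 21, so that the pups took it up with the milk. The Veh dams drank the saccharin water alone, and all mice had normal drinking water from weaning on, so the cortex was sampled long after exposure had ended.

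A neuropeptide is cut out of a longer precursor protein by prohormone convertases while it is packed into dense-core vesicles, together with granins that help to form those vesicles, and is released when a neuron fires strongly. It then acts on G protein-coupled receptors over larger distances than glutamate or GABA do. In the cortex most of these precursors mark subclasses of GABAergic interneurons, whereas Cck, Adcyap1 and Penk are also made by glutamatergic neurons. Penk and Tac1 are best known from the striatum, where they mark the projection neurons of the indirect and the direct pathway.

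Many neuropeptide genes are known targets of the cAMP-responsive factor CREB, which binds the letters TGACGTCA or their shorter core TGACG. The stretches below are shown because these letters are a feature that 6 members have in common and that did not enter their choice. RefSeq promoters (250 bases before to 50 bases after a gene's start, GRCm38.p6) were at hand for 7 of the 10 members, and Penk, Crh and Pnoc had no entry. TGACG, read on either strand, was found in 6 of the 7 (85.7%), compared with 20.8% of all 32851 promoters, and was not found in the window of Tac2. The full 8 letters, which contain the core on both strands, were found in Cartpt and Scg2, 2 of 7, compared with 1.79% of all promoters. A gene was counted if any of its promoters held the letters, whereas the shares of all promoters count each promoter by itself, so the units differ. Capitals mark these letters in each stretch, which runs 5′ to 3′ on the gene's own strand, with distances counted from the RefSeq start given for it:
Cartpt, chr13:99900777-99900806, minus strand, 112 bases before the start at 99900683: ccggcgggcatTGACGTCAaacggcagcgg
Scg2, chr1:79440076-79440105, minus strand, 68 bases before the start at 79440026: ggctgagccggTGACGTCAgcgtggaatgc
Tac1, chr6:7554853-7554879, plus strand, 197 bases before the start at 7555061: ccctaaaattgCGTCAtttcgaacaca
Tac1, chr6:7555007-7555033, plus strand, 43 bases before the start at 7555061: ctctacaggctCGTCAcgcctgagata
Adcyap1, chr17:93198915-93198941, plus strand, 91 bases before the more upstream of 2 starts, at 93199017: gactaggatgcTGACGtcttttactga
Cort, chr4:149126766-149126792, minus strand, 18 bases before the start at 149126763: tccggcttgtgCGTCAccgcgtgagtg
Cck, chr9:121495726-121495752, minus strand, 47 bases before the start at 121495694: ctgctggactgCGTCAgcactgggtaa
The match is of letters only. The gene positions given with the values further on are the outermost GENCODE ends, which begin 408 bases upstream of the RefSeq start for Cartpt, 182 for Tac1 and 94 for Scg2, so the stretches of Cartpt and Scg2 and the second of Tac1 lie inside those GENCODE spans. Among the other neuropeptide precursors that had a promoter entry, 11 of 33 held the core and 2 of 33, Sst and Ucn, held the full letters.

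The libraries had been scaled by the submitters, so that the sums of normalized read counts stood between 92.8% and 104% of their mean, and the read depth behind each value is unknown. Arid1b itself averaged 2368 and 2159 normalized read counts in the vehicle and fluoxetine groups of wild-type mice, and 1795 and 1636 in those of heterozygotes. All 8 cortical glutamatergic markers, Slc17a7 among them, were present in every library, with a mean log2 level between 10.81 and 11.47. Marker levels of 2 neighbouring regions varied between mice. The olfactory bulb score was the mean log2(value + 1) of 10 bulb markers such as Eomes and Tbx21. It lay between 6.79 and 9.09 in 5 libraries (WT-Veh 1, WT-Flx 1, 2 and 4, and HT-Veh 4) and between 3.21 and 4.41 in the other 11. None of the 5 was HT-Flx, and all HT-Flx libraries were among the 11. The summed level of the bulb markers ranged from 265 to 10740 in WT-Veh, 422 to 8163 in WT-Flx, 277 to 3122 in HT-Veh and 229 to 365 in HT-Flx mice, and at most 2 of the 10 markers stood at 0 in a library. The striatal score, from 10 markers of striatal projection neurons such as Drd1, Drd2 and Adora2a, varied from 7.29 in HT-Flx 3 to 9.96 in HT-Veh 4 without such a gap, and its markers summed to 4827 to 13285 in WT-Veh, 7448 to 12638 in WT-Flx, 6395 to 19482 in HT-Veh and 6222 to 12007 in HT-Flx mice. No striatal marker stood at 0 in any library. In bulk tissue of this kind, fewer cells of a type and less RNA per cell cannot be told apart.

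Levels of different genes were compared per kilobase of exon sequence. Cck was the most abundant member at 5336 normalized read counts per kb, averaged over the 16 mice, and was above Scg2 (1569) in 16 of 16 mice. Scg2 was above Penk (1179) in 13 of 16 mice, with overlapping ranges. Penk was 10.3-fold above the next member, Cort, with ranges that did not overlap. The remaining members followed closely on one another, with Cort at 115, Tac2 at 111, Adcyap1 at 108, Tac1 at 100.01, Crh at 73.0, Pnoc at 54.6 and Cartpt at 46.5 per kb, and the ranges of all neighbours in that order overlapped.

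**Figure D1:**
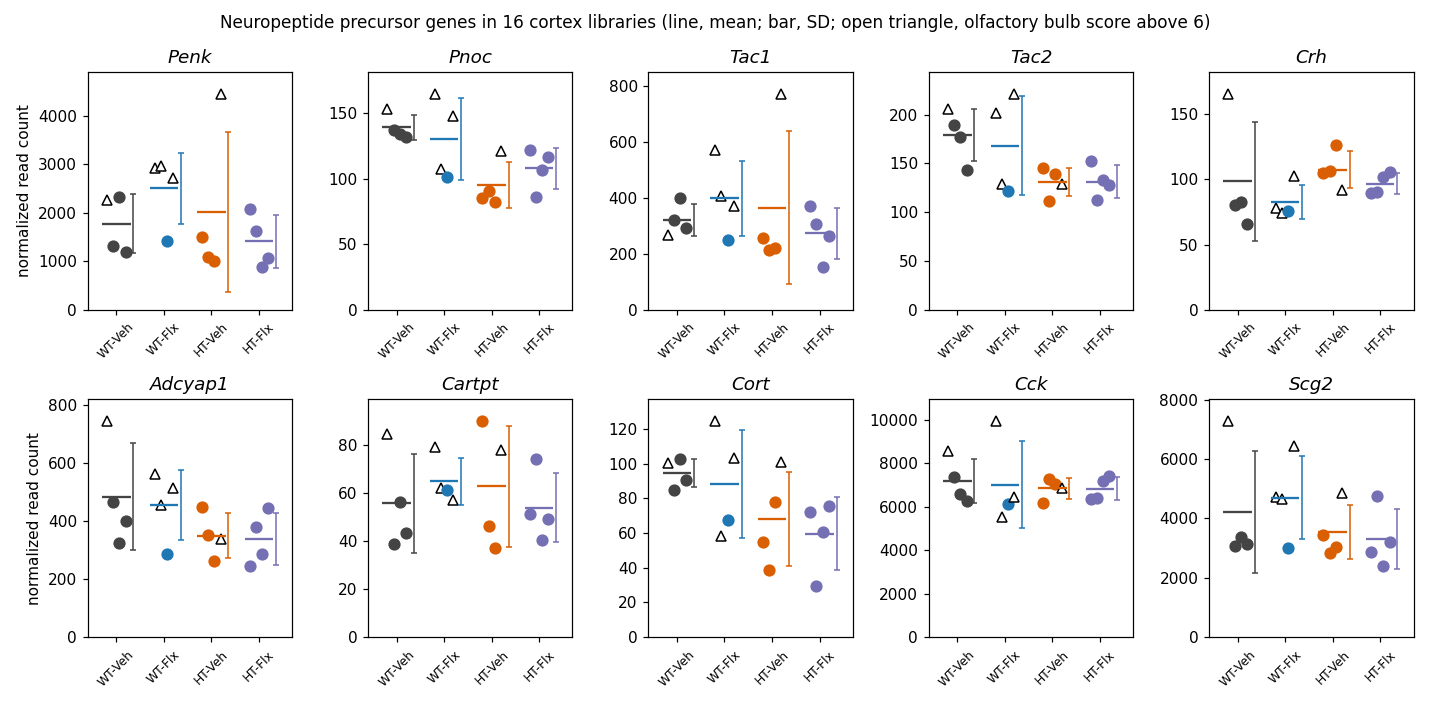
Normalized read counts (y axis) of the 10 members in the 4 groups (x axis). Each point is 1 mouse, lines are means, bars are SDs over 4 mice, and open triangles mark the 5 libraries with a bulb score above 6. The highest Penk and Tac1 values, 4453 and 774, are both those of HT-Veh 4, and the 4 Pnoc values of HT-Veh mice, 82.4 to 121, lie below the 4 of WT-Veh mice, 131 to 153.

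Penk (chr4:4133531-4138819, minus strand), the proenkephalin gene and source of the endogenous opioids Met- and Leu-enkephalin, varied more between mice of a group than almost any gene of its level. It stood at 2260, 1326, 2332 and 1192 normalized read counts in WT-Veh mice 1 to 4 and at 2927, 2957, 1426 and 2706 in WT-Flx mice. HT-Veh mice had 1496, 1080.2, 1003 and 4453, and HT-Flx mice had 2084, 1617, 893 and 1060.05. The highest and the lowest of the 16 libraries were both heterozygous and differed 4.99-fold, and the groups overlapped. Within groups the SD of log2 Penk was 0.67, larger than that of 99.8% of genes of like level. An antisense transcript, A830012C17Rik, overlaps Penk exons on the opposite strand. The library kit keeps the strand, but whether the counting used it is not given in the sources used here.

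Pnoc (chr14:65400673-65425472, minus strand), which encodes nociceptin, an opioid-related peptide with a receptor of its own (Oprl1), was among the steadier members. Its values were 153, 137, 134 and 131 in WT-Veh and 165, 107, 101 and 147 in WT-Flx mice. In HT-Veh mice they were 85.4, 90.7, 82.4 and 121, and in HT-Flx mice 121, 86.1, 107 and 116. Every HT-Veh library lay below every WT-Veh library, whereas the HT-Flx and WT-Flx values overlapped. The SD of log2 Pnoc within groups was 0.24, larger than that of 32.0% of genes of like level.

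Tac1 (chr6:7554879-7565834, plus strand) encodes the tachykinins substance P and neurokinin A. WT-Veh mice had 267, 321, 402 and 295 normalized read counts, and WT-Flx mice had 571, 406, 248 and 370.5. HT-Veh mice had 256, 213, 220.4 and 774, and HT-Flx mice had 371, 306, 155 and 264. As with Penk, HT-Veh 4 was the highest and HT-Flx 3 the lowest library, and the groups overlapped. The SD of log2 Tac1 within groups was 0.59, above that of 98.9% of genes of like level.

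Tac2 (chr10:127724478-127731768, plus strand), the neurokinin B precursor, differed less between mice. It stood at 206, 189, 177 and 143 in WT-Veh, 201, 129, 121 and 222 in WT-Flx, 145, 112, 139 and 129 in HT-Veh and 153, 113, 133 and 128 in HT-Flx mice. The highest HT library (153) was above 3 of the 8 WT libraries, so the genotypes overlapped. The within-group SD of log2 Tac2 was 0.27, near the middle (51.7%) of genes of like level.

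Crh (chr3:19693401-19695396, minus strand) encodes corticotropin-releasing hormone, the peptide that starts the hypothalamic stress response and that some cortical interneurons also make. Its values were 166, 80.1, 82.4 and 65.8 in WT-Veh, 78.3, 74.4, 75.8 and 103 in WT-Flx, 105, 107, 126 and 91.8 in HT-Veh and 89.6, 90.1, 102 and 106 in HT-Flx mice. The 2 WT libraries above 100 were WT-Veh 1 and WT-Flx 4, those with the highest bulb scores, and the values of the genotypes overlapped.

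Adcyap1 (chr17:93199017-93206537, plus strand), the precursor of the peptide PACAP, was at 746, 465, 326 and 401 in WT-Veh, 563, 454, 288 and 514 in WT-Flx, 449, 352, 261 and 337 in HT-Veh and 246, 380.1, 286 and 444 in HT-Flx mice. Its 3 highest libraries, WT-Veh 1, WT-Flx 1 and WT-Flx 4, were wild type and rich in bulb markers, and the ranges of the groups overlapped. Cartpt (chr13:99898489-99901091, minus strand), the CART precursor, was the least abundant member per kb and ranged from 37.2 in HT-Veh 3 to 90.2 in HT-Veh 1, so a single group spanned its whole range.

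Cort (chr4:149125034-149126763, minus strand) encodes cortistatin, a relative of somatostatin made by cortical interneurons. It stood at 100.1, 84.9, 103 and 90.7 in WT-Veh and 125, 58.3, 67.3 and 103 in WT-Flx mice. HT-Veh mice had 54.9, 38.6, 77.6 and 101, and HT-Flx mice had 72.1, 29.6, 60.5 and 75.8. Among vehicle mice, 3 of the 4 HT libraries lay below all 4 WT libraries, and HT-Veh 4 lay among them. Cck (chr9:121489824-121495694, minus strand), the cholecystokinin gene, had overlapping values in the 4 groups. Its mean was 7180.1 ± 1012 in WT-Veh mice and 6835 ± 481 in HT-Veh mice (SD, n = 4). After fluoxetine it was 7009 ± 1995 in WT and 6830.3 ± 524 in HT mice.

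Scg2 (chr1:79434669-79440120, minus strand), the secretogranin II gene, whose product helps to load dense-core vesicles and is itself cut to the peptide secretoneurin, was at 7291, 3064, 3376 and 3156 in WT-Veh and 4707, 4649.8, 3006 and 6451 in WT-Flx mice. It was at 3432, 2854, 3054 and 4846 in HT-Veh and 2878, 4747, 2409 and 3217 in HT-Flx mice. All 5 libraries rich in bulb markers were at 4649.8 or above, and of the other 11 only HT-Flx 2 was. The within-group SD of log2 Scg2 was 0.46, larger than that of 99.5% of genes of like level.

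To ask whether Arid1b haploinsufficiency was accompanied by altered neuropeptide precursor levels, HT and WT mice were compared with limma on log2(value + 1), with p-values adjusted over all genes tested. Fold changes on this scale slightly understate those of low genes, and p-values reflect the spread between these mice. None of the 10 members passed an adjusted p of 0.05 in HT-Veh compared with WT-Veh mice, where 0.0178% of all genes did. Tac2 and Pnoc had an unadjusted p under 0.05, both lower in HT-Veh, compared with 4.88% of all genes in either direction and 2.26% that were lower. The log2 change of Pnoc was −0.56 (SE 0.15, unadjusted p = 0.00461, limma adjusted p = 0.872), from 139 ± 9.83 in WT-Veh to 94.8 ± 17.6 in HT-Veh mice (SD, n = 4). Pnoc was the only member whose vehicle groups did not overlap, as was the case for 3.84% of all genes. For Tac2 the log2 change was −0.44 (SE 0.15, unadjusted p = 0.0145, limma adjusted p = 0.922), from 179 ± 26.4 to 131 ± 14.5. Of the 10 members, 8 had a negative log2 change, compared with 48.2% of all genes, with a median of −0.12 against 0.0062 for all genes.

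Without the libraries WT-Veh 1 and HT-Veh 4, both rich in bulb markers, 5 members had an unadjusted p under 0.05 between vehicle genotypes, against 10.9% of all genes. Pnoc (log2 change −0.63), Cort (−0.74), Tac1 (−0.55) and Tac2 (−0.36) were then lower and Crh (0.56) higher in HT-Veh mice, with none past the threshold after adjustment and the smallest limma adjusted p at 0.153, for Pnoc. Leaving out HT-Veh 4 alone, the library with the highest striatal score, gave 4 such members, against 6.09% of all genes.

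Among fluoxetine-treated mice, none of the 10 members passed the adjusted threshold in HT-Flx compared with WT-Flx mice (0.0417% of all genes did). Penk and Scg2 had an unadjusted p under 0.05, against 10.4% of all genes, and both were lower in HT-Flx (4.87% of all genes were, at that p). Penk differed by a log2 change of −0.85 (SE 0.28, unadjusted p = 0.00983, limma adjusted p = 0.366), from 2504 ± 727 in WT-Flx to 1413 ± 544 in HT-Flx mice (SD, n = 4). Scg2 differed by −0.50 (SE 0.23, unadjusted p = 0.0486, limma adjusted p = 0.474), from 4704 ± 1407 to 3313 ± 1012. For 9 of the 10 members the log2 change was negative, compared with 48.4% of all genes, with a median of −0.37 against 0.0081. In this comparison the bulb markers moved the same way, with 7 of the 7 that passed the filter lower in HT-Flx at an unadjusted p under 0.05 and a median log2 change of −2.69. With the bulb score in the fit, the log2 change of Penk was −0.040 (SE 0.36) and that of Scg2 was 0.28 (SE 0.25, limma adjusted p = 1.00 for both). No member then had an unadjusted p under 0.05 (1.98% of all genes did), and 3 of the 10 log2 changes were negative. The bulb scores of the groups did not overlap, with 4.41 to 8.61 in WT-Flx and 3.21 to 4.18 in HT-Flx mice. Genotype and bulb score therefore cannot be told apart in that fit. With the striatal score in place of the bulb score, the log2 changes were −0.54 (unadjusted p = 0.0110 by limma, adjusted p = 0.684) for Penk and −0.39 for Scg2. Without WT-Flx 1 and 4 they were −0.62 (unadjusted p = 0.111 by limma) and −0.22. The 1 member then with an unadjusted p under 0.05 was Cck, higher in HT-Flx (0.23, unadjusted p = 0.0367, limma adjusted p = 0.638), against 7.6% of all genes. In that fit 6 of the 10 log2 changes were negative. The count of 2 members at an unadjusted p under 0.05 was 1 without WT-Flx 1, 2 or 4 or HT-Flx 3 (6.71% to 11.2% of all genes), and 4 without WT-Flx 3, the only WT-Flx library poor in bulb markers (13.5% of all genes).

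**Figure D2:**
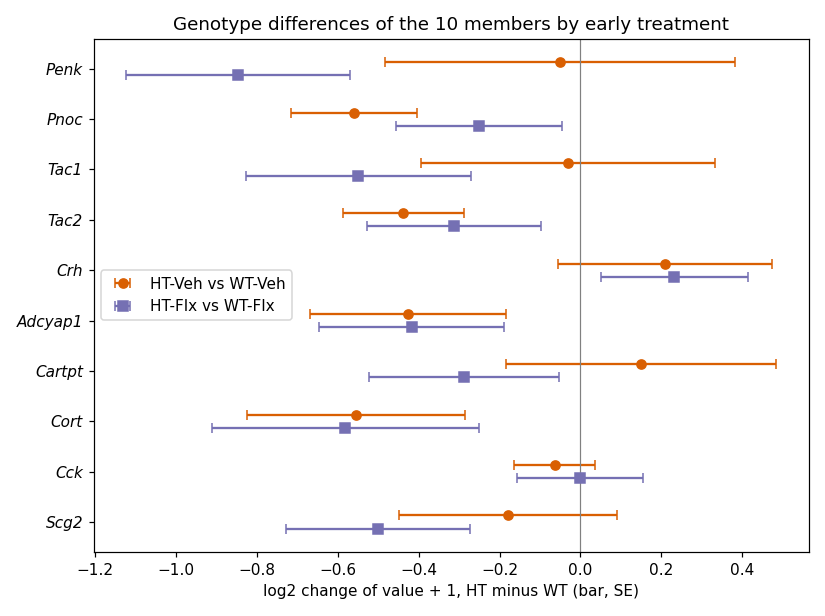
Log2 change of each member (y axis), HT minus WT (x axis), in vehicle mice (circles) and in fluoxetine-treated mice (squares), with bars of 1 SE from limma and 4 mice a group. Most points lie left of 0, 8 of 10 in vehicle and 9 of 10 in fluoxetine-treated mice, Crh lies right of 0 in both, and the bars of 2 treatments overlap for all members but Penk.

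Over both treatments, with 8 mice a genotype and treatment as a term, again none of the 10 members passed the adjusted threshold (0.0398% of all genes did), and 4 had an unadjusted p under 0.05 (11.9% of all genes). These 4 were Pnoc, Tac2, Cort and Adcyap1, all lower in HT mice, as were 5.44% of all genes at that p. Pnoc changed by −0.41 (SE 0.13, unadjusted p = 0.00538, limma adjusted p = 0.298) and Tac2 by −0.38 (SE 0.13, unadjusted p = 0.0101, limma adjusted p = 0.342). Cort changed by −0.57 (SE 0.22, unadjusted p = 0.0191, limma adjusted p = 0.387) and Adcyap1 by −0.42 (SE 0.18, unadjusted p = 0.0273, limma adjusted p = 0.391). The median log2 change of the 10 members was −0.36 against 0.0044 for all genes, and 9 of 10 were negative (48.9% of all genes). Without the 5 libraries rich in bulb markers 6 of 10 were negative, and Pnoc (−0.38) and Crh (0.49) had an unadjusted p under 0.05, against 6.39% of all genes. Leaving out HT-Veh 4 alone gave 7 members with an unadjusted p under 0.05, against 14% of all genes.

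Early fluoxetine was not accompanied by a detectable difference in any member. In WT-Flx compared with WT-Veh mice, in HT-Flx compared with HT-Veh mice and over both genotypes, 0 of 10 members passed the adjusted threshold, 0 had an unadjusted p under 0.05, and 0% of all genes passed the adjusted threshold. At an unadjusted p under 0.05 the shares of all genes were 4.2%, 3.07% and 3.11%, respectively. In wild-type mice the smallest p was that of Penk, with a log2 change of 0.50 in WT-Flx (unadjusted p = 0.106 by limma), where the bulb markers had a median log2 change of 1.52 and the striatal markers one of 0.50. Leaving out WT-Flx 3 or WT-Veh 1 gave 2 members with an unadjusted p under 0.05 in that comparison, against 4.38% and 10.3% of all genes. Without WT-Veh 1 and WT-Flx 1 and 4 there were 3, Tac2 (−0.43), Cort (−0.55) and Cck (−0.21), against 15.8% of all genes, with limma adjusted p-values from 0.242 to 0.284. In heterozygotes it was that of Pnoc (0.19, unadjusted p = 0.323 by limma), and over both genotypes that of Crh (−0.15, unadjusted p = 0.332 by limma). The genotype-by-fluoxetine interaction likewise called 0 of 10 members (0% of all genes), and 0 had an unadjusted p under 0.05 (4.29% of all genes), with Penk first at −0.80 (SE 0.57, unadjusted p = 0.178 by limma). With both scores in the fit the log2 change of Penk was −0.19 in WT-Flx compared with WT-Veh mice, and the interaction was 0.13. Without WT-Veh 1, WT-Flx 1 and 4 and HT-Veh 4, Pnoc had an interaction of 0.67 (unadjusted p = 0.0119, limma adjusted p = 0.451), the only member with an unadjusted p under 0.05, against 9.48% of all genes.

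In contrast with the groups, the marker scores were accompanied by large differences in single members. When log2 levels were fitted on both scores and the 4 groups at once, the striatal score called 2 of the 10 members, compared with 0.233% of all genes (41 of 17567, 10 of them the markers themselves). Penk rose by 0.57 on the log2 scale per unit of striatal score (SE 0.051, limma adjusted p = 9.11e-06) and Tac1 by 0.60 (SE 0.070, limma adjusted p = 0.000181). The other 8 members were not called, with slopes from −0.26 for Crh to 0.18 for Cartpt. Neither Penk nor Tac1 is among the genes of the score, but both are known markers of the same striatal projection neurons. The lists were also chosen with earlier results of these data known, so these 2 calls are not independent of the choice. Leaving out any single mouse kept both calls, with slopes from 0.53 to 0.61 for Penk and from 0.54 to 0.66 for Tac1. Without the bulb score in the fit, Tac1 was called and Penk was not (0.171% of all genes were). Without WT-Veh 1, WT-Flx 1 and 4 and HT-Veh 4, Penk was called and Tac1 was not (0.0987% of all genes were). Without the 5 libraries rich in bulb markers the slope of Penk was 0.67 (limma adjusted p = 0.144) and that of Tac1 was 0.36 (limma adjusted p = 0.603), with 11 mice left.

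**Figure D3:**
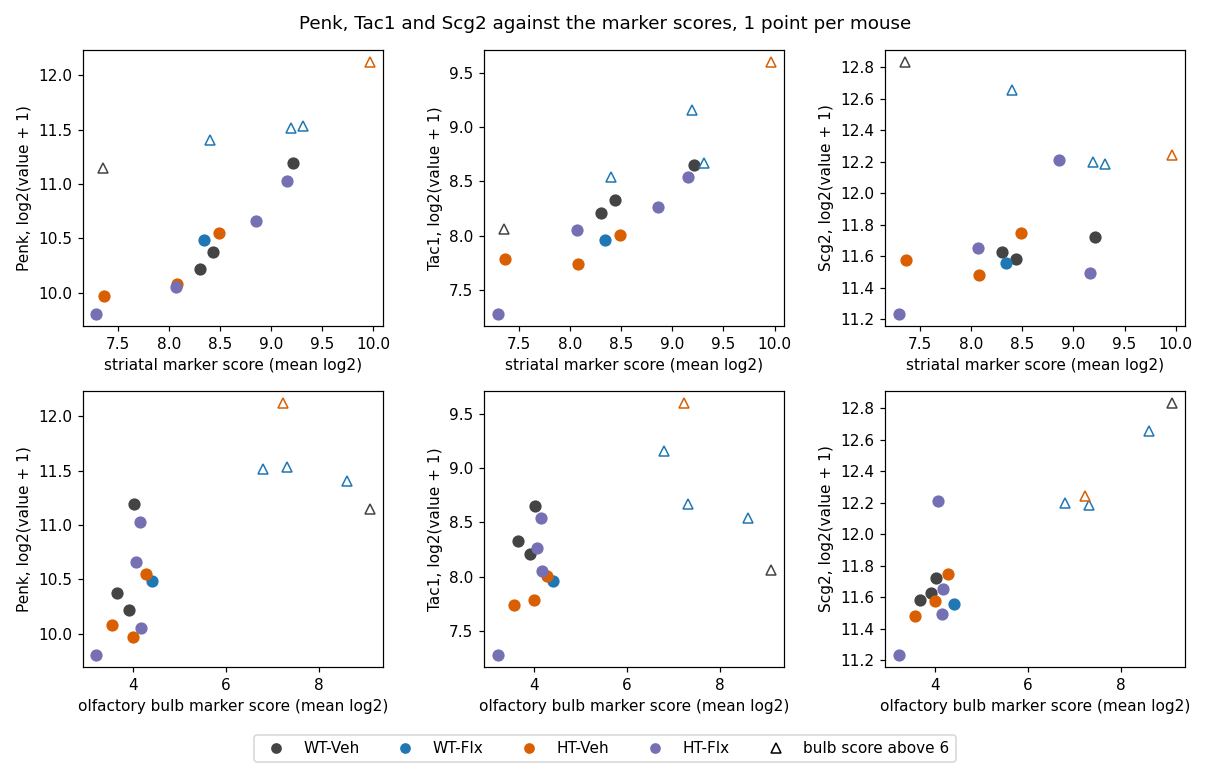
Log2 levels of Penk, Tac1 and Scg2 (y axes) against the striatal (top) and the olfactory bulb marker score (bottom), both as mean log2(value + 1), 1 point per mouse coloured by group, with open triangles for the 5 libraries with a bulb score above 6. Penk and Tac1 rise with the striatal score from HT-Flx 3 at 7.29 to HT-Veh 4 at 9.96, and Scg2 is high where the bulb score is high.

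The bulb score called 5 of the 10 members, all higher with the score, compared with 13.2% of all genes in either direction and 5.23% higher. Penk (0.23 per unit, SE 0.024, limma adjusted p = 1.05e-05) and Scg2 (0.23, SE 0.028, limma adjusted p = 7.86e-05) rose most. Adcyap1 (0.15, limma adjusted p = 0.0467), Crh (0.12, limma adjusted p = 0.0248) and Tac1 (0.11, limma adjusted p = 0.0337) followed, and the slopes of all 10 members were positive, with a median of 0.12 against 0.0015 for all genes. The calls changed when single libraries were left out. Without WT-Veh 1, the library with the highest bulb score, Penk alone was called (0.497% of all genes were), without WT-Flx 3 Penk and Scg2 were (7.24% of all genes), and without any of HT-Veh 2, WT-Flx 4, WT-Veh 3 or WT-Veh 4 there were 3 (9.09% to 12.2% of all genes). Without the 5 libraries rich in bulb markers no member was called, and neither was any other gene (0% of all genes). Both scores were fitted after the data had been seen.

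**Figure D4:**
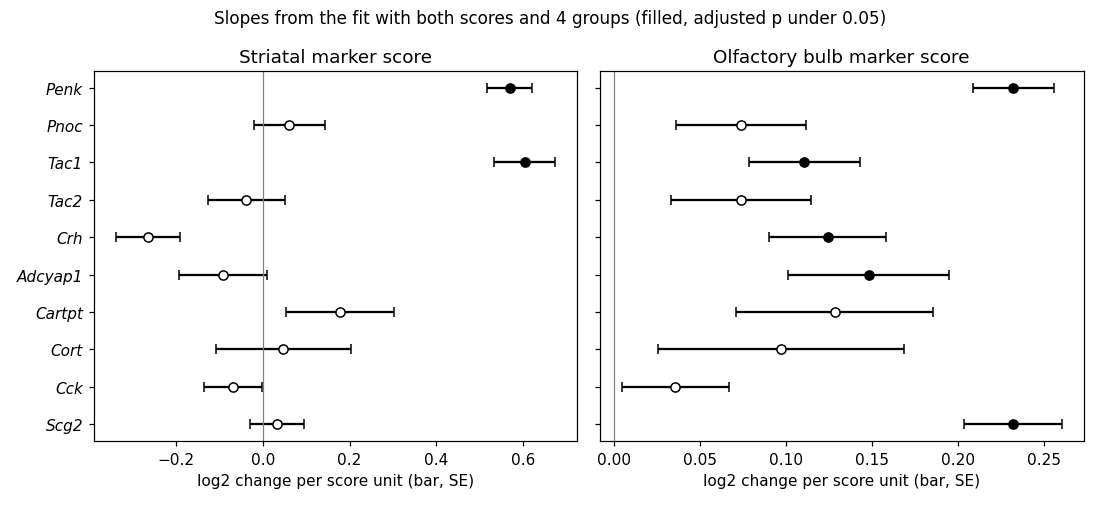
Log2 change of each member (y axis) per unit of the striatal (left) and the bulb marker score (right) on the x axes, with bars of 1 SE, from 1 limma fit over 16 mice. Filled points passed an adjusted p of 0.05, Penk and Tac1 on the left and Penk, Tac1, Crh, Adcyap1 and Scg2 on the right, where all 10 points lie right of 0.

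Among the members themselves, Penk and Tac1 were the pair most alike over the 16 mice (Pearson's r of log2 levels 0.89), followed by Tac2 and Pnoc (0.81) and Cort and Pnoc (0.80). These are descriptions, as all genes share the libraries, their scaling and the 5 libraries rich in bulb markers. Of the 12542 other genes with a mean of at least 100, those most like Penk were Doc2b (0.92) and Syndig1l (0.90), and those most like Tac1 were Rxrg (0.90) and Penk. Scg2 was most like Grm4 (0.97) and Cd24a (0.95), and Cck was most like Psmc5 (0.95) and Ttc9b (0.93). Tac2 was most like Jtb and Zfp580, Adcyap1 like Tmem35a and Ube2e1, and Pnoc like Ddrgk1 and Hacd1, with r from 0.86 to 0.91. Crh, Cort and Cartpt, searched over 12543 genes, were most like Gtf2i and Col7a1, Mecr and Znhit1, and Thsd7b and Ndst4, respectively, with r from 0.79 to 0.87.

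Other genes of the peptide pathway were examined alongside. Of 39 other neuropeptide precursors, 21 were in the table and 17 were tested over both treatments, where 1 rose in HT mice and none fell. This was Pdyn, which encodes prodynorphin, the precursor of the kappa-opioid peptides. It stood at 459, 563, 609 and 529 in WT-Veh, 626, 466, 515 and 333 in WT-Flx, 856, 839.9, 778 and 801 in HT-Veh and 769, 1044, 758 and 678 in HT-Flx mice, so all 8 HT values lay above all 8 WT values, as did those of 0.131% of all genes in either direction. Its log2 change was 0.68 (SE 0.11, limma adjusted p = 0.0350), 0.62 (limma adjusted p = 0.0256) without the 4 libraries WT-Veh 1, WT-Flx 1 and 4 and HT-Veh 4, and 0.57 (limma adjusted p = 0.131) without WT-Flx 2 as well. With the bulb score in the fit it was 0.58 (limma adjusted p = 0.101), so the call was lost there too. Leaving out 1 mouse gave limma adjusted p-values from 0.0146 to 0.0920 and kept the call in 6 of 16 fits. The call was lost without WT-Veh 1 or 2, WT-Flx 2 or 3, HT-Veh 1, 2 or 3, or HT-Flx 1, 2 or 3. Pdyn was 0.61 higher in HT-Veh than in WT-Veh mice (limma adjusted p = 0.256) and 0.76 higher in HT-Flx than in WT-Flx mice (limma adjusted p = 0.289).

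None of the 6 other granins and granin-like proteins, the 7 processing enzymes and the 17 tested receptors and binding proteins of the members passed the adjusted threshold between genotypes or treatments, or in their interaction. Over both treatments the smallest p among them was that of Oprd1, the delta-opioid receptor on which enkephalins act, with a log2 change of 0.71 (unadjusted p = 0.00256, limma adjusted p = 0.269). Chga, which encodes the vesicle protein chromogranin A, was at −0.20 (unadjusted p = 0.0518 by limma) and Cpd, a carboxypeptidase gene, at 0.14 (unadjusted p = 0.0526 by limma). The striatal score called 0 of the 17 other precursors, 0 of the 6 granins, 0 of the 7 enzymes and 0 of the 17 receptors and binding proteins. Of all genes, 13.2% were called by the bulb score, and 5.23% were called as higher with it. The bulb score called 3 of the 17 other precursors, all higher, namely Trh (0.88 per unit, limma adjusted p = 7.51e-09), Nmb (0.67, limma adjusted p = 0.000338) and Nts (0.52, limma adjusted p = 0.0336). It called no granin besides Scg2, whereas the receptor genes Vipr2 (0.94, limma adjusted p = 3.05e-06) and Tacr1 (0.33, limma adjusted p = 0.000898) rose and Cckbr (−0.054, limma adjusted p = 0.0479) fell with it. Among the processing enzymes Qpct rose (0.17, limma adjusted p = 0.000681) and Pam (−0.047, limma adjusted p = 0.0441) and Pcsk2 (−0.064, limma adjusted p = 0.0367) fell with the bulb score.

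Marker lists of the cortical cell types that make these peptides were tested in the same fits. None of the 12 GABAergic interneuron markers and none of the 8 glutamatergic markers passed the adjusted threshold in any comparison. Over both treatments 3 interneuron markers had an unadjusted p under 0.05 (11.9% of all genes), 2 of them lower in HT mice (5.44% of all genes). The list median was −0.15. Lhx6, a transcription factor of Sst and Pvalb interneurons, had the smallest p and was higher in HT mice (log2 change 0.31, unadjusted p = 0.0253, limma adjusted p = 0.391). The summed level of the interneuron markers ranged from 29081 to 47056 in WT-Veh, 27745 to 40184 in WT-Flx, 26208 to 32106 in HT-Veh and 26469 to 28362 in HT-Flx mice. The bulb score called 5 of the 12 higher and 3 lower, compared with 13.2% of all genes in either direction. Calb2 (0.79 per unit), Gad1 (0.25) and Slc32a1 (0.13) were the higher ones with the smallest p. The part of the interneuron markers in the genotype differences of Pnoc, Tac2 and Cort was not tested.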

How the data were processed

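Libraries were made from prefrontal cortex RNA with the TruSeq Stranded mRNA kit and sequenced in pairs by the authors. The authors quantified reads with Salmon 1.1.0 against GRCm38 and scaled them with DESeq2 1.30.1, versions per the submitters' processing notes. The table deposited by the authors holds 1 signal value per gene and mouse, a read count divided by the size factor of DESeq2 (normalized read count). The values are not whole and share no common step, so counts and depth could not be recovered, a count model was not used, and precision was judged from the 4 mice of a group.

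Of 18424 gene IDs, 18411 matched a symbol. Values were analysed as log2(value + 1) with limma 3.58.1 (R 4.3.3, empirical Bayes with trend), over genes that reached 10 in 4 or more samples of the comparison, with Benjamini-Hochberg adjustment over all genes tested and a threshold of 0.05. Pairwise comparisons used only their 2 groups. Fits on the marker scores (both scores and 4 groups) were added after the data were seen. Coordinates and exon lengths are from GENCODE vM21 (GRCm38), and promoters from RefSeq. All 10 members were described, and a log2 change with its p is given where the unadjusted p was under 0.05 or the groups did not overlap, and otherwise for the member with the smallest p. Of the other lists, genes past the threshold or that with the smallest p are named, and for each member the 2 genes with the highest correlation over 16 samples. The members and lists were chosen with earlier results of these data known. Nothing in the labels says that equally numbered mice are related. Fits were tested on simulated data with independent errors, where known changes were put only into genes with a within-group SD below the median. That test does not show how the fits perform for genes of larger spread. Alternatives are given at the end.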

Additional observations from a re-analysis of the deposited data

Results flagged for a closer look

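In 4 of the 40 sets of 4 mice (10 members in 4 groups), 1 mouse stood far from the other 3 on the log2 scale (its gap to the nearest, divided by the range of the group, exceeded Dixon's critical value). Chance flags about 1 in 20 such sets. Scg2 was at 7291 in WT-Veh 1, the library with the highest bulb score (9.09), and its nearest neighbour was at 3376. Tac1 was at 774 in HT-Veh 4, which had the highest striatal score (9.96) and where Penk was also highest (4453), and its nearest neighbour was at 256. Penk was at 1426 in WT-Flx 3, the one WT-Flx library with a low bulb score (4.41), and its nearest neighbour was at 2706. Crh was at 103 in WT-Flx 4, which had the second highest bulb score (8.61), and its nearest neighbour was at 78.3. No cause of these values was tested.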

How the results depend on the processing

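The number of members called between groups was 0 in each of the 7 comparisons under every alternative run (pseudocounts, filters, scalings, sample weights, all groups in the fit, the replicate block, marker scores as covariates, and leaving out mice). The sign of log2 changes was followed value by value only for the members given one in a comparison, and 4 of these 296 values reversed. Scg2 in HT-Flx compared with WT-Flx was 0.28 with the bulb score and 0.28 with both scores as covariates. Penk in WT-Flx compared with WT-Veh was −0.19 with both scores, and the interaction of Penk was 0.13 with both scores. The other members are not among these 296 values. Over all members, the number with a negative log2 change was less stable. It ranged from 5 to 9 (8 as reported) for HT-Veh against WT-Veh and from 3 to 9 (9) for HT-Flx against WT-Flx. For HT-Flx against HT-Veh it ranged from 3 to 9 (8), and for HT against WT over both treatments from 5 to 9 (9). The striatal score called 1 member (Tac1) without the bulb score in the fit (0.171% of all genes). It called 1 (Penk) without WT-Veh 1, WT-Flx 1 and 4 and HT-Veh 4 (0.0987%), and 0 without these and WT-Flx 2 (0.0292%). Whichever single mouse was left out, it called 2 (0.16% to 0.463% of all genes). The bulb score called 3 members without the striatal score in the fit (13.2% of all genes). It called 0 without those 4 or 5 libraries (0.0058% and 0% of all genes, respectively). With 1 mouse left out it called from 1 to 5 (0.497% to 21.6% of all genes). Of 195 recomputed slopes, 41 kept their sign and lost the threshold. The causes of these differences were not tested.

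Over all genes, the number called ranged over the alternatives from 0 to 35 (3 as reported) for HT-Veh against WT-Veh, 0 to 23 (7) for HT-Flx against WT-Flx, 1 to 23 (7) over both treatments, and 0 to 25 (0) for WT-Flx against WT-Veh. The correlation of equally numbered mice over genes averaged 0.011 to 0.13 between groups, and in no pair of groups were all 4 over 0.1, so the numbers were not taken as a pairing. With the replicate block the count of members called remained 0 in all 7 comparisons and 2 for the striatal score (0.199% of all genes). For the bulb score it fell from 5 to 2, and the share of all genes fell from 13.2% to 4.16%. The unknown read depth limits what can be said of low members such as Cartpt.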
